A study of Mus musculus with 4 samples.

Results

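The genes described here are 41 genes that mark monocytes and macrophages. They were taken by exact match of the gene symbol from the deposited tables, which list 20611 genes per library, and all 41 were found. They fall into 13 genes of the macrophage lineage and its lysosomes, 12 Fc receptor and complement genes, 11 receptors of the kind carried by tissue-resident macrophages, and 5 inflammatory receptors and enzymes. Of the 41 genes, 40 passed the filter on low counts and were among the 15068 genes tested. Marco, a scavenger receptor, did not pass, with 4 counts in IMQ+IDMF skin, 6 and 0 counts in the IMQ+VEH libraries and 7 counts in IMQ skin.

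The libraries came from the back skin of male BALB/c mice, 8 to 9 weeks old. Every mouse was given 5% imiquimod cream, 47 mg daily from day 1 through day 5, and skin was taken on day 6. Imiquimod activates Toll-like receptor 7, and repeated application to mouse skin is used as a model of psoriasis-like inflammation. IMQ+IDMF skin (1 library) also received, about 1 h after the cream, a lotion with isosorbide di-(methyl fumarate), IDMF, a pro-drug of dimethyl fumarate. IMQ+VEH skin (2 libraries, replicates 1 and 2) received the lotion without IDMF, and IMQ skin (1 library) received the cream alone. All groups carry imiquimod, and no library of skin without it was used here, so no level can be set against resting skin. The series text calls the libraries biological replicates and says nothing of pooling. The p-values rest only on the spread of the IMQ+VEH pair, shared across genes.

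Skin holds macrophages that settle in the dermis and take up debris, and inflamed skin also recruits monocytes from blood that become macrophages on site. Both kinds depend on the receptor Csf1r, digest what they engulf in lysosomes, and sense antibody-coated or complement-coated targets through Fc and complement receptors. Receptors such as Mrc1, Cd163 and Folr2 are typical of resident macrophages, while Arg1 and Nos2 encode enzymes that use arginine and mark different states of activation. In whole skin, fewer macrophages and less RNA per macrophage cannot be told apart.

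Total counts were 21991604 in IMQ+IDMF skin, 26639628 and 21167149 in IMQ+VEH replicates 1 and 2, and 26337985 in IMQ skin. A floor of 3 counts for a gene not detected corresponds to 0.107 to 0.146 CPM (counts scaled to the size of the library), and covers only the error of counting. The keratinocyte markers that define skin were abundant in every library, with summed levels of 53392 CPM in IMQ+IDMF skin, 46296 and 58087 CPM in IMQ+VEH skin and 61433 CPM in IMQ skin. Together the 41 genes took 0.0883% of counts in IMQ+IDMF skin, 0.219% and 0.118% in IMQ+VEH replicates 1 and 2, and 0.133% in IMQ skin.

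The IMQ+VEH libraries stood apart from each other for these genes. Replicate 2 lay below replicate 1 for 37 of the 40 tested members, where 53% of all tested genes did so, with a median log2 CPM difference of -0.74 (replicate 2 minus replicate 1) against -0.03 over all genes. More than 2-fold below were 10 members (8.08% of all tested genes), among them Adgre1, Itgam, Mrc1, Cd163 and Folr2. The exceptions, higher in replicate 2, were Clec7a, Arg1 and Chil3. A result against IMQ+VEH therefore has a size that depends on the replicate, and both are given.

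**Figure D1:**
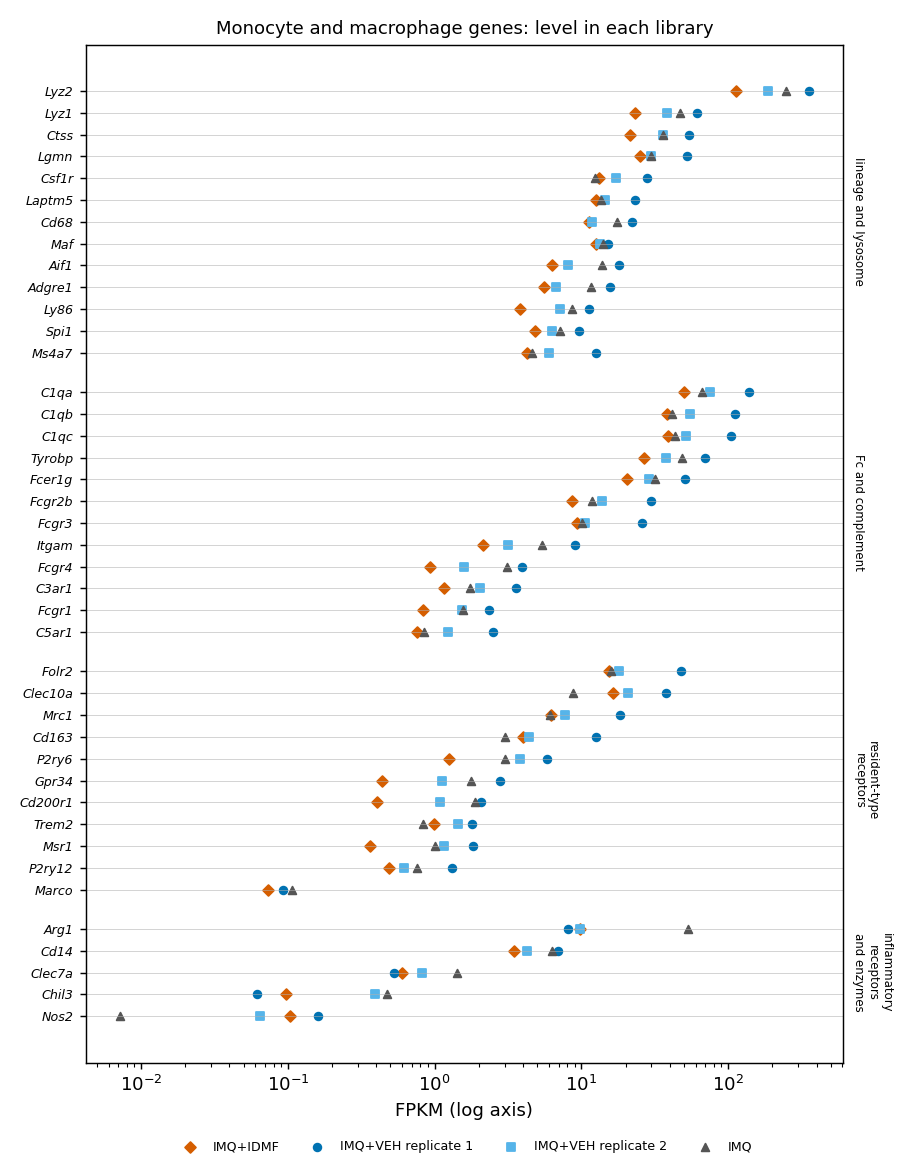
Deposited FPKM of the 41 genes (log axis) in IMQ+IDMF skin, IMQ+VEH replicates 1 and 2 and IMQ skin, 1 point per library, by subgroup and ordered by mean level. IMQ+VEH replicate 1 is rightmost and IMQ+IDMF leftmost for many genes, with Lyz2 highest at 112 FPKM in IMQ+IDMF skin and 353 FPKM in IMQ+VEH replicate 1, while Arg1 stands out at 53.1 FPKM in IMQ skin. Marco has no point in IMQ+VEH replicate 2, where it is listed at 0.

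Per transcript length (FPKM, the authors' values scaled to transcript length and library size), the members spanned a wide range. Lyz2, the lysozyme of myeloid cells, had the highest mean level over the libraries, 225 FPKM, followed by the C1q chains C1qa with 82.6 FPKM, C1qb with 61.5 FPKM and C1qc with 59.6 FPKM. Tyrobp, the signalling adaptor DAP12, came next with 45.6 FPKM, then Lyz1 with 42.3 FPKM and the lysosomal protease Ctss with 37.0 FPKM. Across libraries the ranges of neighbours in this order overlapped, so the order is one of means. Within each library, though, Lyz2 lay above C1qa and C1qa above C1qb. Lowest in mean level stood Chil3 with 0.255 FPKM, Nos2 with 0.0837 FPKM and Marco with 0.0683 FPKM.

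Setting IMQ+IDMF skin beside IMQ+VEH skin asks what the compound adds to its lotion. Macrophage genes lay lower in IMQ+IDMF skin than in either IMQ+VEH library for 36 of the 40 tested members, a pattern that 27.5% of all tested genes showed. The exceptions were Clec7a, Arg1, Nos2 and Chil3, all from the inflammatory subgroup, and none of the 40 lay above both. Below replicate 1 alone lay 37 members (50.4% of all genes) and below replicate 2 alone 39 (49.4%). The median log2 fold change over the 40 members was -1.02, against -0.01 over all tested genes. The median difference was -1.37 to replicate 1 and -0.52 to replicate 2.

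No member passed the threshold: by edgeR's quasi-likelihood test with Benjamini-Hochberg adjustment over all genes, 0 of 15068 genes were called (0%), and the adjusted p was 1 for each of the 40. Without adjustment, 306 genes had p under 0.05, of which 233 were lower (1.55% of genes) and 73 higher (0.484%), and DESeq2 also called 0. Among the members, 23 of 40 had an unadjusted p under 0.05 and were lower, and 0 were higher. The shared direction rests on 1 IMQ+IDMF library, and after adjustment no single member was called. The test shares the spread of the IMQ+VEH pair across genes, with 11.2 prior degrees of freedom beside 1 residual degree. It therefore does not compare a member with the spread of its own pair. In 29 of the 40 members IMQ+VEH replicate 1 was the highest and IMQ+IDMF the lowest of the libraries, an order that 6.22% of all genes had.

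**Figure D2:**
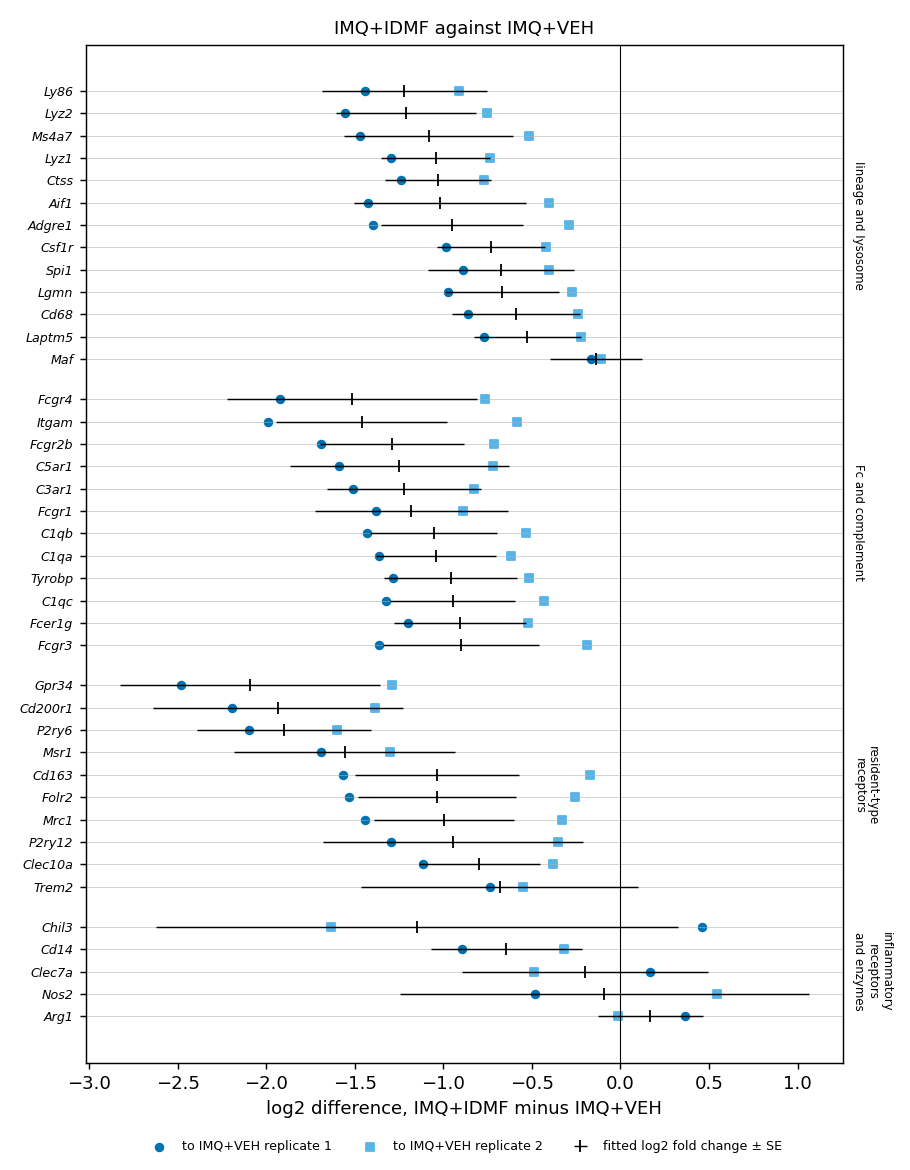
Log2 difference of IMQ+IDMF minus IMQ+VEH for the 40 tested genes by subgroup: circles are log2 CPM differences to replicate 1, squares to replicate 2, and the tick with its bar is the edgeR log2 fold change ± SE. Nearly all points lie left of 0, with medians of -1.37 to replicate 1 and -0.52 to replicate 2, and the inflammatory genes lie around or on both sides of 0 except Cd14.

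In the lineage and lysosome subgroup all 13 members lay below both IMQ+VEH libraries in IMQ+IDMF skin, with a median log2 fold change of -0.95. Lyz2 had 132 CPM in IMQ+IDMF skin, 389 and 224 CPM in IMQ+VEH replicates 1 and 2, and 308 CPM in IMQ skin. IMQ+IDMF was the lowest of the libraries and IMQ+VEH replicate 1 the highest. The fitted fold change was -1.21 on the log2 scale (SE 0.40, edgeR adjusted p = 1), with differences of -1.56 to replicate 1 and -0.76 to replicate 2. Lyz1, a neighbouring lysozyme gene that in mice is best known from Paneth cells of the gut, had 34.1 CPM in IMQ+IDMF skin, 83.8 and 56.8 CPM in IMQ+VEH skin and 71.6 CPM in IMQ skin. Its order of the libraries was that of Lyz2, and its log2 fold change was -1.04 (SE 0.31, edgeR adjusted p = 1).

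The lysozyme pair lies side by side on the minus strand of chromosome 10, Lyz2 at chr10:117277331-117282321 and Lyz1 at chr10:117287797-117292868 (GENCODE M21, GRCm38). Their coding sequences are shown because reads from the stretches they share cannot be told apart. Over 444 coding bases they differ at 22 positions (95% identity), and the longest identical run is 118 bases, longer than the 50-cycle reads. The first 300 coding bases of each follow, taken from GENCODE M21 on GRCm38, 5′ to 3′, with capitals at the 20 bases that differ.
Lyz2: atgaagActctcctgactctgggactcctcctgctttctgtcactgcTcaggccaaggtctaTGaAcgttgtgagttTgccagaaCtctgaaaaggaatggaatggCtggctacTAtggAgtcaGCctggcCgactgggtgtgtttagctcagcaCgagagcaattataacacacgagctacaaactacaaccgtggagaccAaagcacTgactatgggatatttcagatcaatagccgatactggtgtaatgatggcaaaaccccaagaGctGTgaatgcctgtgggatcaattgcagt
Lyz1: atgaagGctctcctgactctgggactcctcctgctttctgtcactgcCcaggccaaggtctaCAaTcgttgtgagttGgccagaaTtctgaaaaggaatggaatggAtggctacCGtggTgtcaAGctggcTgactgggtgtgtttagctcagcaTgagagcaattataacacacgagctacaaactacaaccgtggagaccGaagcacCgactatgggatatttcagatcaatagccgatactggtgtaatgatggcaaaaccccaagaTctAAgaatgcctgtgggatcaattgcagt
Of all 50-base windows of their transcripts, 15.4% of those of Lyz2 occur also in Lyz1, and 16.1% of those of Lyz1 also in Lyz2. How reads with more than 1 match were counted was not given in the sources used here, so the split between the genes is uncertain. The ratio of Lyz2 to Lyz1 in FPKM was 4.82 in IMQ+IDMF skin, 5.77 and 4.89 in IMQ+VEH skin and 5.34 in IMQ skin.

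Ctss, cathepsin S, which trims the invariant chain during antigen presentation, had 34.2 CPM in IMQ+IDMF skin, 80.9 and 58.4 CPM in IMQ+VEH skin and 60.3 CPM in IMQ skin. Ly86, which encodes MD-1, the partner of the Toll-like receptor homologue RP105, had 4.20 CPM in IMQ+IDMF skin, 11.6 and 8.00 CPM in IMQ+VEH skin and 9.97 CPM in IMQ skin. Both were lowest in IMQ+IDMF and highest in IMQ+VEH replicate 1. Log2 fold changes were -1.03 (SE 0.30) for Ctss and -1.22 (SE 0.47) for Ly86, with an edgeR adjusted p of 1 for each. Csf1r, the receptor for the growth factors on which macrophages depend, had 66.5 CPM in IMQ+IDMF skin, 132 and 89.2 CPM in IMQ+VEH skin and 65.2 CPM in IMQ skin. It was the single lineage gene of the 13 that was not lowest in IMQ+IDMF, since IMQ lay slightly below. Of its annotated exon bases, 15.1% are overlapped on the opposite strand by Hmgxb3, which had 710 counts in IMQ+IDMF skin, 804 and 653 in IMQ+VEH skin and 659 in IMQ skin. Adgre1, the F4/80 antigen, had 23.3 CPM in IMQ+IDMF skin, 61.6 and 28.5 CPM in IMQ+VEH skin and 51.3 CPM in IMQ skin, so its distance to replicate 1 (-1.40) was far larger than that to replicate 2 (-0.29).

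The remaining lineage genes differed in how far IMQ+IDMF lay below. The Cd68 lysosomal glycoprotein, the myeloid transcription factor Spi1 (PU.1), the microglia and macrophage marker Aif1, Laptm5, Lgmn (the lysosomal protease legumain) and Ms4a7 had log2 fold changes between -0.53 for Laptm5 and -1.08 for Ms4a7. Maf, a transcription factor of macrophages that keratinocytes and lymphocytes also express, stood apart from the rest, with 59.7 CPM in IMQ+IDMF skin, 67.1 and 64.4 CPM in IMQ+VEH skin and 69.5 CPM in IMQ skin. Its log2 fold change was -0.14 (SE 0.26), within its error of 0.

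All 12 Fc receptor and complement genes lay lowest of all libraries in IMQ+IDMF skin and highest in IMQ+VEH replicate 1. Their median log2 fold change to IMQ+VEH was -1.12, with median log2 CPM differences of -1.41 to replicate 1 and -0.60 to replicate 2. Fcgr1, the high-affinity receptor for IgG, had 2.73 CPM in IMQ+IDMF skin, 7.24 and 5.12 CPM in IMQ+VEH skin and 5.36 CPM in IMQ skin. Fcgr4, an activating receptor for IgG2 subclasses, had 1.34 CPM in IMQ+IDMF skin, 5.31 and 2.34 CPM in IMQ+VEH skin and 4.73 CPM in IMQ skin. For Fcgr1 replicate 2 was close to IMQ, while for Fcgr4 it lay well below IMQ and nearer to IMQ+IDMF. Their log2 fold changes were -1.18 (SE 0.54) for Fcgr1 and -1.52 (SE 0.70) for Fcgr4, with an edgeR adjusted p of 1 for each. Fcgr2b, the inhibitory Fc receptor, and Fcgr3, an activating one, had values of -1.29 (SE 0.41) and -0.90 (SE 0.44), and 9.58% of the 50-base windows of Fcgr3 are shared with Fcgr2b. Fcer1g, the common signalling chain of the activating Fc receptors, had -0.91 (SE 0.37), and Tyrobp had -0.96 (SE 0.38).

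The genes for the subunits of C1q, which starts the classical complement pathway and which macrophages produce in tissues, lie next to each other on chromosome 4. C1qa had 60.8 CPM in IMQ+IDMF skin, 157 and 93.5 CPM in IMQ+VEH skin and 84.8 CPM in IMQ skin. C1qb had 45.7 CPM in IMQ+IDMF skin, 124 and 66.3 CPM in IMQ+VEH skin and 51.1 CPM in IMQ skin. C1qc had 45.8 CPM in IMQ+IDMF skin, 115 and 61.8 CPM in IMQ+VEH skin and 53.4 CPM in IMQ skin. The 3 chains kept the same order of libraries. IMQ lay nearer to IMQ+IDMF than to IMQ+VEH replicate 2 for C1qb, and about midway between them for C1qc. Log2 fold changes of IMQ+IDMF to IMQ+VEH were -1.04 (SE 0.34) for C1qa, -1.06 (SE 0.36) for C1qb and -0.95 (SE 0.35) for C1qc. Per length, the FPKM ratio of C1qc to C1qb varied little and was 1.01 in IMQ+IDMF skin, 0.936 and 0.941 in IMQ+VEH skin and 1.05 in IMQ skin. C1qa over C1qb was 1.30 in IMQ+IDMF skin, 1.24 and 1.38 in IMQ+VEH skin and 1.62 in IMQ skin, highest in IMQ.

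As Spi1 is itself a member, the promoters of all members were searched for GAGGAA, the core of the purine-rich box bound by its product PU.1. The search covered both strands of the 250 bases before the start of transcription in RefSeq (GRCm38.p6), which held a promoter for 27 of the 41 genes. The core was found in 14 of the 27 (51.9%), and in 23.1% of all 27025 promoters in the table. Among the 14 were members that did not lie below both IMQ+VEH libraries or were not tested, such as Clec7a and Marco. The longer form GAGGAAGT, which contains the core, was found in 2 of the 27 (7.41%), Fcgr4 and C1qc, and in 2.44% of all promoters. The promoters with the longer form, and that of C1qb as a neighbour of C1qc with the core alone, follow 5′ to 3′ on the strand of the gene, with capitals at the core or its reverse complement TTCCTC.
Fcgr4, chr1:171018676-171018925, plus strand: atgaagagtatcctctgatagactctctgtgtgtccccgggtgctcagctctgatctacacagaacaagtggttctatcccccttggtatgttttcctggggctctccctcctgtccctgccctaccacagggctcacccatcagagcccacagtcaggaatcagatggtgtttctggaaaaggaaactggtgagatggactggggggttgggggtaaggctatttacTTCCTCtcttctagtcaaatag
C1qc, chr4:136892915-136893164, minus strand: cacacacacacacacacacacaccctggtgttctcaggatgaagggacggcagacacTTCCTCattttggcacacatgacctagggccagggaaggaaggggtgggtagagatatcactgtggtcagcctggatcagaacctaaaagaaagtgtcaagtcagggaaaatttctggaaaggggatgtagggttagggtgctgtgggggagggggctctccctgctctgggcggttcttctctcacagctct
C1qb, chr4:136886201-136886450, minus strand: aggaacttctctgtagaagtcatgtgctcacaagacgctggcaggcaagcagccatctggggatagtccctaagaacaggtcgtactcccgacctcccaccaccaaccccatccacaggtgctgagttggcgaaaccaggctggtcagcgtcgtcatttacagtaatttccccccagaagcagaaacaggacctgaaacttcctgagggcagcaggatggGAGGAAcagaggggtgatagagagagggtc
A match describes these letters and is not a measurement of binding.

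The complement receptors were also lowest in IMQ+IDMF and highest in IMQ+VEH replicate 1. C3ar1, the receptor for the fragment C3a, had 6.53 CPM in IMQ+IDMF skin, 18.8 and 11.7 CPM in IMQ+VEH skin and 10.4 CPM in IMQ skin, a log2 fold change of -1.22 (SE 0.43, edgeR adjusted p = 1) to IMQ+VEH. C5ar1, the receptor for C5a, had 2.37 CPM in IMQ+IDMF skin, 7.31 and 3.95 CPM in IMQ+VEH skin and 2.80 CPM in IMQ skin. Itgam, the CD11b chain of complement receptor 3, which neutrophils share, had 13.1 CPM in IMQ+IDMF skin, 52.3 and 19.7 CPM in IMQ+VEH skin and 34.6 CPM in IMQ skin. For C3ar1 and C5ar1 replicate 2 lay above IMQ, as for the C1q chains, while for Itgam it lay below IMQ, and Itgam spread most between the IMQ+VEH libraries. Its log2 fold change of -1.46 (SE 0.48) had an edgeR adjusted p of 1, and of 0.0292 when genes were not filtered for low counts; over the other alternatives it was not called. Of the windows of Itgam, 66.3% are shared with the overlapping gene model Gm49368 on the same strand, so its level may be split by the counting.

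Among receptors of resident macrophages, all 10 tested genes lay below both IMQ+VEH libraries in IMQ+IDMF skin, with a median log2 fold change of -1.04. More than 2-fold below both lay 4 members, all of this subgroup, and 1.59% of all tested genes did so. P2ry6, a receptor for extracellular UDP, had 2.95 CPM in IMQ+IDMF skin, 12.9 and 9.12 CPM in IMQ+VEH skin and 7.41 CPM in IMQ skin, a log2 fold change of -1.90 (SE 0.49). Cd200r1, an inhibitory receptor for CD200, had 0.939 CPM in IMQ+IDMF skin, 4.60 and 2.59 CPM in IMQ+VEH skin and 4.61 CPM in IMQ skin, a log2 fold change of -1.94 (SE 0.71). Msr1, the class A scavenger receptor, had 1.61 CPM in IMQ+IDMF skin, 5.38 and 4.10 CPM in IMQ+VEH skin and 3.39 CPM in IMQ skin, a log2 fold change of -1.56 (SE 0.62). These genes were named because IMQ+IDMF lay farthest below both IMQ+VEH libraries, so that distance is not a further result. IMQ+IDMF also lay below IMQ for each of them, beside 49.8% of all tested genes. The fourth was Gpr34, a receptor for lysophosphatidylserine, with 23 counts in IMQ+IDMF skin, 172 and 54 in IMQ+VEH skin and 110 in IMQ skin, and a log2 fold change of -2.09 (SE 0.73). These are genes of low level, with 21 to 66 counts in the IMQ+IDMF library, and the edgeR adjusted p was 1 for each.

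The more abundant receptors of resident macrophages sat closer to IMQ+VEH replicate 2. Folr2, a folate receptor, had 18.6 CPM in IMQ+IDMF skin, 54.1 and 22.3 CPM in IMQ+VEH skin and 20.1 CPM in IMQ skin. Mrc1, the mannose receptor CD206, had 44.0 CPM in IMQ+IDMF skin, 120.0 and 55.3 CPM in IMQ+VEH skin and 44.7 CPM in IMQ skin. Cd163, the receptor for haemoglobin-haptoglobin complexes, had 23.1 CPM in IMQ+IDMF skin, 68.7 and 26.1 CPM in IMQ+VEH skin and 18.5 CPM in IMQ skin. For each of these a single library, IMQ+VEH replicate 1, was high and the others lay close together. The log2 difference of IMQ+IDMF to replicate 2 alone was -0.26 for Folr2, -0.33 for Mrc1 and -0.17 for Cd163, against -1.53, -1.45 and -1.57 to replicate 1 alone. Folr2 carries a further limit, since 63.1% of its exon bases are overlapped on the opposite strand by Gm10602 and the strand setting of the counting was not given in the sources used here. P2ry12, an ADP receptor best known from microglia, and Trem2, a lipid-sensing receptor of macrophages, had low levels. Their log2 fold changes were -0.94 (SE 0.73) and -0.68 (SE 0.78). Trem2 had 27 counts in IMQ+IDMF skin, 58 and 37 in IMQ+VEH skin and 27 in IMQ skin.

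The 5 inflammatory receptors and enzymes did not share this order: 1 of 5, Cd14, lay below both IMQ+VEH libraries in IMQ+IDMF skin. Their median log2 fold change was -0.20, with median log2 CPM differences of 0.17 to replicate 1 and -0.32 to replicate 2. Cd14, the co-receptor for lipopolysaccharide, had 6.98 CPM in IMQ+IDMF skin, 13.0 and 8.73 CPM in IMQ+VEH skin and 13.3 CPM in IMQ skin. Arg1, the enzyme arginase 1, which keratinocytes and other cells can also express, had 17.3 CPM in IMQ+IDMF skin, 13.4 and 17.5 CPM in IMQ+VEH skin and 97.5 CPM in IMQ skin. Clec7a, the beta-glucan receptor Dectin-1, had 1.61 CPM in IMQ+IDMF skin, 1.43 and 2.29 CPM in IMQ+VEH skin and 4.02 CPM in IMQ skin. For Arg1 and Clec7a the IMQ+IDMF library lay between the IMQ+VEH libraries, with IMQ well above. The log2 fold change of IMQ+IDMF to IMQ+VEH was 0.17 for Arg1 (SE 0.30) and -0.20 for Clec7a (SE 0.70). Nos2, inducible nitric oxide synthase, had 12 counts in IMQ+IDMF skin, 22 and 7 in IMQ+VEH skin and 1 in IMQ skin, and Chil3, the chitinase-like protein Ym1, had 4 counts in IMQ+IDMF skin, 3 and 15 in IMQ+VEH skin and 23 in IMQ skin. Such counts are too low to order the libraries, and 26.9% of the windows of Chil3 occur in other genes.

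The comparison of IMQ+VEH with IMQ skin asks what the lotion alone does. Of the 15068 genes, 100 were called by edgeR (0.664%), 51 higher (0.338%) and 49 lower (0.325%), and among the 40 members 1 was called. Arg1 fell in IMQ+VEH skin, to 15.4 ± 2.87 CPM (SD, n = 2) against 97.5 CPM in the single IMQ library, 6.33-fold lower by the fit. The log2 fold change was -2.66 (SE 0.28, edgeR adjusted p = 0.000898), with IMQ+VEH below IMQ in 2 of 2 libraries. Over the alternatives that gave a test it was called in 6 of 6, with an adjusted p from 3.02e-16 to 0.00535. IMQ+IDMF skin, with its 17.3 CPM, lay at the level of the IMQ+VEH libraries, so that IMQ alone was high.

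Clec10a, the galactose-type lectin MGL1 of dermal macrophages and dendritic cells, was the member next in rank. It had 50.6 ± 17.8 CPM in IMQ+VEH skin (SD, n = 2, values 63.2 and 37.9) and 16.3 CPM in IMQ skin, with 29.1 CPM in IMQ+IDMF skin. IMQ lay below every other library. The log2 fold change of IMQ+VEH to IMQ was 1.63 (SE 0.36), and its edgeR adjusted p of 0.0791 missed the threshold, while 4 of 6 alternatives called it (adjusted p from 0.000133 to 0.130). Cd163 with 1.36 (SE 0.47), Mrc1 with 0.97 (SE 0.39), C1qb with 0.89 (SE 0.35) and Csf1r with 0.76 (SE 0.31) lay higher in IMQ+VEH skin with an unadjusted p under 0.05 only. With Clec10a and Nos2 they were 6 of the 40 members, where 6.26% of all genes were higher at that level, and Arg1 was the 1 member lower, where 2.55% of genes were. When genes were not filtered for low counts, edgeR called Mrc1 (adjusted p = 0.0497) and Cd163 (adjusted p = 0.00304) as well.

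Over the 40 members the median log2 fold change of IMQ+VEH to IMQ was 0.23, against 0.00 over all tested genes, and replicates differed in its sign. The median difference to IMQ was 0.60 for replicate 1 and -0.06 for replicate 2. Above IMQ in both IMQ+VEH libraries lay 18 members (33.6% of all genes), and below in both lay 6 (35% of all genes), namely Maf, Cd200r1, Cd14, Clec7a, Arg1 and Chil3. Replicate 1 alone lay above IMQ for 34 members (48.3% of all genes) and replicate 2 alone for 18 (50.2%). By subgroup the median was -0.01 for lineage and lysosome genes, 0.56 for Fc receptor and complement genes, 0.72 for the receptors of resident macrophages and -1.12 for the inflammatory genes. Receptors of resident macrophages were thus above IMQ in both libraries for 7 of 10 genes, and inflammatory genes below in both for 4 of 5, with Nos2 the exception. Of those inflammatory genes, Arg1 and Clec7a lay well below IMQ in both. Cd14 was level with IMQ in replicate 1 (difference -0.03), and Chil3 had too few counts to order the libraries. Cd200r1 was also level with IMQ in replicate 1 (-0.004).

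**Figure D3:**
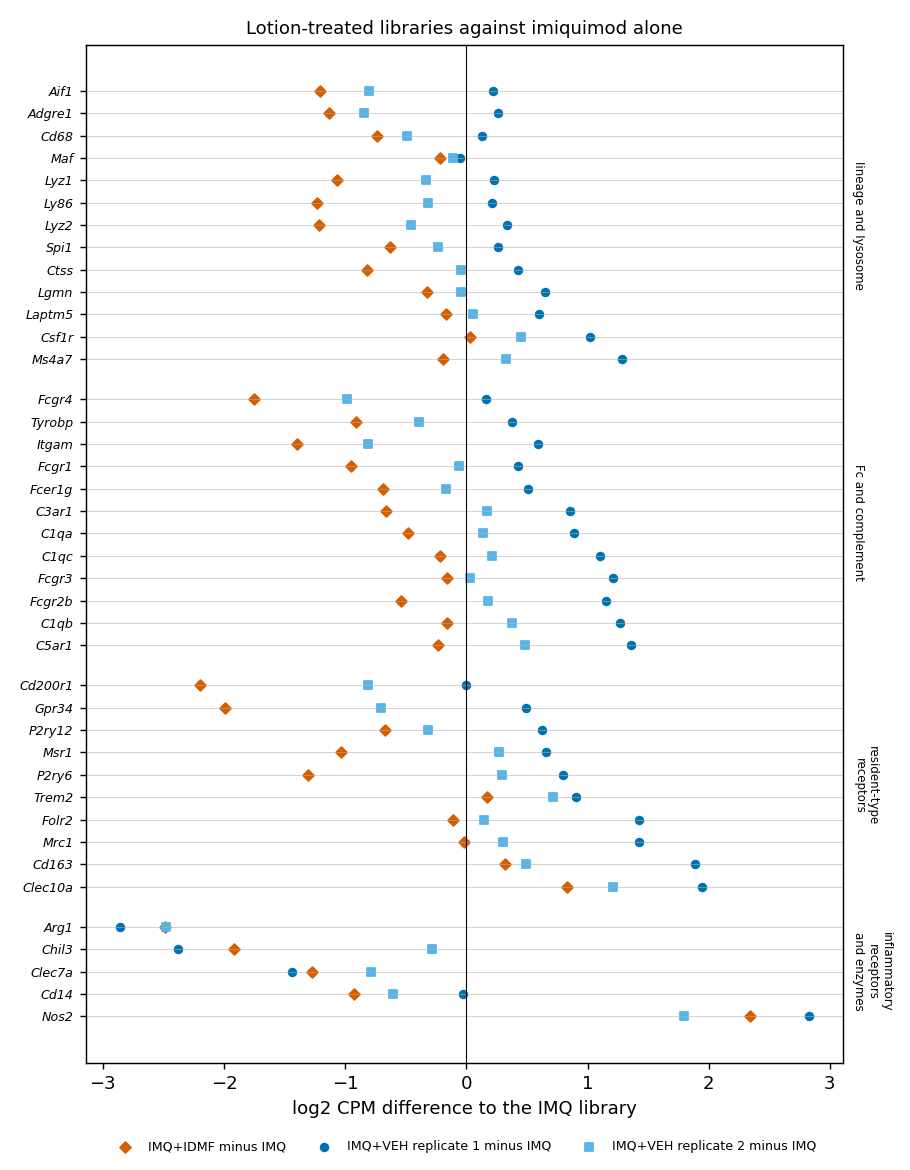
Log2 CPM difference to the IMQ library for IMQ+IDMF (diamonds), IMQ+VEH replicate 1 (circles) and IMQ+VEH replicate 2 (squares), for the 40 tested genes by subgroup. Clec10a lies right of 0 in each, Arg1 lies left of 0 in each (IMQ+IDMF at -2.49, IMQ+VEH at -2.86 and -2.48), and IMQ+VEH replicate 1 is right of 0 for 34 genes. Nos2 rests on 1 count in IMQ skin.

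With a single library on each side, IMQ+IDMF and IMQ skin can be compared by size alone. IMQ+IDMF lay below IMQ for 35 of 40 members (49.8% of all genes), with a median log2 CPM difference of -0.68 against 0.00 over all genes. More than 2-fold below lay 14 members (4.51% of all genes), among them Lyz2, Lyz1, Ly86, Adgre1, Aif1, Itgam, Fcgr4, Cd200r1, Gpr34, P2ry6, Msr1 and Arg1. Above IMQ lay Csf1r, Cd163, Clec10a, Trem2 and Nos2, and more than 2-fold above lay 1 member (6.78% of all genes), Nos2, which rests on 1 count in IMQ skin. IMQ+IDMF was the lowest of all libraries for 32 of the 40 members, which 19.5% of all tested genes were. The receptors of resident macrophages split here, from -2.20 for Cd200r1 to 0.83 for Clec10a.

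Set against Adgre1 within the same library, the FPKM of Mrc1 was 1.12 times that of Adgre1 in IMQ+IDMF skin, 1.16 and 1.15 times in IMQ+VEH skin and 0.518 times in IMQ skin. For Cd163 the ratio to Adgre1 was 0.715 in IMQ+IDMF skin, 0.805 and 0.653 in IMQ+VEH skin and 0.259 in IMQ skin. For Clec10a it was 2.93 in IMQ+IDMF skin, 2.41 and 3.12 in IMQ+VEH skin and 0.745 in IMQ skin. In these ratios the 3 libraries that had a lotion lay nearer to one another than to IMQ, and IMQ lay below them. For Lyz2 this was not so: its ratio to Adgre1 was 20.2 in IMQ+IDMF skin, 22.5 and 27.9 in IMQ+VEH skin and 21.3 in IMQ skin, with IMQ inside the range of the others. With 1 IMQ library there is no replicate of its low values. The ratios also depend on the reference gene. Adgre1 had 51.3 CPM in IMQ skin, above IMQ+IDMF (23.3 CPM) and IMQ+VEH replicate 2 (28.5 CPM). Csf1r, of the same subgroup, had 65.2 CPM in IMQ skin, below IMQ+IDMF (66.5 CPM) and replicate 2 (89.2 CPM). IMQ+VEH replicate 1 was highest for both genes. Ratios to Csf1r were not calculated, so a shift of these receptors among macrophages was not tested.

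Genes of 6 lists related to macrophage function were read in the same way, and in IMQ+IDMF against IMQ+VEH edgeR and DESeq2 called 0 of them. Below both IMQ+VEH libraries lay 27.5% of all tested genes. Complement factors and other complement receptors did so for 10 of 15 genes, median log2 fold change -0.74. Of these Cfb, a factor of the alternative pathway, had 599 counts in IMQ+IDMF skin, 2196 and 702 in IMQ+VEH skin and 1439 in IMQ skin. Genes of monocyte recruitment and growth factors lay below both for 8 of 13, median -0.54. Their Ccr2, the receptor that brings monocytes out of blood, had 150 counts in IMQ+IDMF skin, 548 and 209 in IMQ+VEH skin and 655 in IMQ skin, lowest in IMQ+IDMF as the members were. Lysosomal hydrolases and membrane proteins, which other skin cells also make, lay below both for 14 of 18, but by a smaller median of -0.27. Scavenging, efferocytosis and iron handling gave 5 of 14 with a median of -0.49. Fc receptor and DAP12 signalling gave 6 of 15 with a median of -0.31. These counts were not far from the share of all genes, and the replicates disagreed on the sign of both medians. On the log2 CPM scale IMQ+IDMF lay under replicate 1 (scavenging -0.64, signalling -0.44). It lay slightly over replicate 2 (scavenging 0.12, signalling 0.04). Vsig4, a complement receptor of resident macrophages in the scavenging list, had low counts, with 0 in IMQ+IDMF skin, 48 and 7 in IMQ+VEH skin and 6 in IMQ skin. Lyve1 and Siglec1 of that list had more counts and lay above replicate 2 in IMQ+IDMF skin, with log2 CPM differences of 0.53 and 0.31. Against replicate 1 their differences were -1.35 and -1.88. Myeloid transcription factors had 1 of 10 below both and 3 of 10 above both (27.7% of all genes lay above both), with a median of 0.03.

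In IMQ+VEH against IMQ, edgeR called 1 gene of those lists, beside 0.664% of all tested genes, so the call describes that gene and not the lists. It was the cathepsin Ctsk, a lysosomal gene that fibroblasts also make. It rose in IMQ+VEH skin, with 2951 and 3329 counts against 857 in IMQ skin, a log2 fold change of 1.99 (SE 0.34, edgeR adjusted p = 0.0189). The list medians for IMQ+VEH against IMQ were 0.51 for complement factors, 0.48 for scavenging, 0.13 for transcription factors, 0.08 for lysosomal genes, 0.07 for Fc receptor and DAP12 signalling and -0.16 for recruitment.

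Markers of other cell types moved with the macrophage genes in part. In IMQ+IDMF against IMQ+VEH, edgeR called 0 genes of the 11 marker lists. Fibroblast markers lay below both IMQ+VEH libraries for 9 of 11 genes (27.5% of all tested genes), with a median of -0.96. Their summed level was 2356 CPM in IMQ+IDMF skin, 6727 and 3530 CPM in IMQ+VEH skin and 1841 CPM in IMQ skin. Summed over the 41 macrophage genes the level was 869 CPM in IMQ+IDMF skin, 2082 and 1223 CPM in IMQ+VEH skin and 1376 CPM in IMQ skin. In both sums IMQ+VEH replicate 1 was the highest, and the median log2 CPM difference of replicate 2 minus replicate 1 was -0.96 for fibroblast and -1.05 for endothelial markers. The part of these markers in the macrophage result was not tested.

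Markers of other immune cells lay below both IMQ+VEH libraries in IMQ+IDMF skin to different extents, beside 27.5% of all tested genes. Dendritic and Langerhans cell markers lay below both IMQ+VEH libraries for 11 of 13, median -0.45, with sums of 568 CPM in IMQ+IDMF skin, 729 and 959 CPM in IMQ+VEH skin and 626 CPM in IMQ skin. Neutrophil markers did so for 5 of 9 tested, median -0.83, with sums of 1755 CPM in IMQ+IDMF skin, 4530 and 2200 CPM in IMQ+VEH skin and 8718 CPM in IMQ skin, most of it from S100a8 and S100a9, which keratinocytes also make. Fpr1 was also among the 5, by little against replicate 2. It had 0.716 CPM in IMQ+IDMF skin, 1.89 and 0.780 CPM in IMQ+VEH skin and 2.13 CPM in IMQ skin. The tested neutrophil genes not below both were Mpo, Camp and Cxcr2, which lay between the IMQ+VEH libraries, and Mmp8, which lay above both. Mpo, a granule enzyme, had 29 counts in IMQ+IDMF skin, 35 and 87 in IMQ+VEH skin and 7 in IMQ skin, and Mmp8, a granule collagenase, had 15 counts in IMQ+IDMF skin, 7 and 5 in IMQ+VEH skin and 11 in IMQ skin. Elane, Ltf, Ngp and Retnlg did not pass the filter, and Ltf and Retnlg had at most 3 counts in every library. T and NK cell markers did so for 7 of 14 (median -0.72, sums of 16.2 CPM in IMQ+IDMF skin, 20.0 and 19.6 CPM in IMQ+VEH skin and 24.2 CPM in IMQ skin), and mast cell markers for 5 of 7 (median -0.82, sums of 21.6 CPM in IMQ+IDMF skin, 39.2 and 33.1 CPM in IMQ+VEH skin and 27.4 CPM in IMQ skin). B and plasma cell markers did so for 1 of 4 tested, near the share of all genes, with a median of -0.40 and sums of 2.19 CPM in IMQ+IDMF skin, 3.89 and 2.49 CPM in IMQ+VEH skin and 4.49 CPM in IMQ skin. Their part in the macrophage result was not tested.

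Other markers did not follow the macrophage genes below both IMQ+VEH libraries, where 27.5% of all tested genes lay. Endothelial markers lay below both for 1 of 9 (median -0.14), adipocyte markers for 1 of 8 (median -0.03) and skeletal muscle markers for 0 of 8 (median 0.11). The sign of these medians depended on the replicate. To replicates 1 and 2 they were -0.56 and 0.51 for endothelial, -0.22 and 0.19 for adipocyte and -0.07 and 0.25 for skeletal muscle markers. Above both IMQ+VEH libraries in IMQ+IDMF skin lay 27.7% of all tested genes. Keratinocyte markers did so for 6 of 10 (median 0.24) and hair follicle markers for 10 of 10 (median 1.77). In IMQ+VEH against IMQ, edgeR called 3 of 10 hair follicle markers lower (Krt25, Krt35 and Krt71, list median -3.17), beside 0.325% of all tested genes. Called higher were 5 of 8 adipocyte markers (Adipoq, Plin1, Cidec, Pparg and Retn, list median 1.98), beside 0.338% of all tested genes. In the other marker lists 0 genes were called. Those other medians were 1.08 for fibroblast, 0.80 for endothelial, 0.69 for skeletal muscle, 0.51 for dendritic, 0.38 for mast, 0.11 for T and NK, -0.17 for neutrophil, -0.27 for keratinocyte and -0.82 for B and plasma cell markers.

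**Figure D4:**
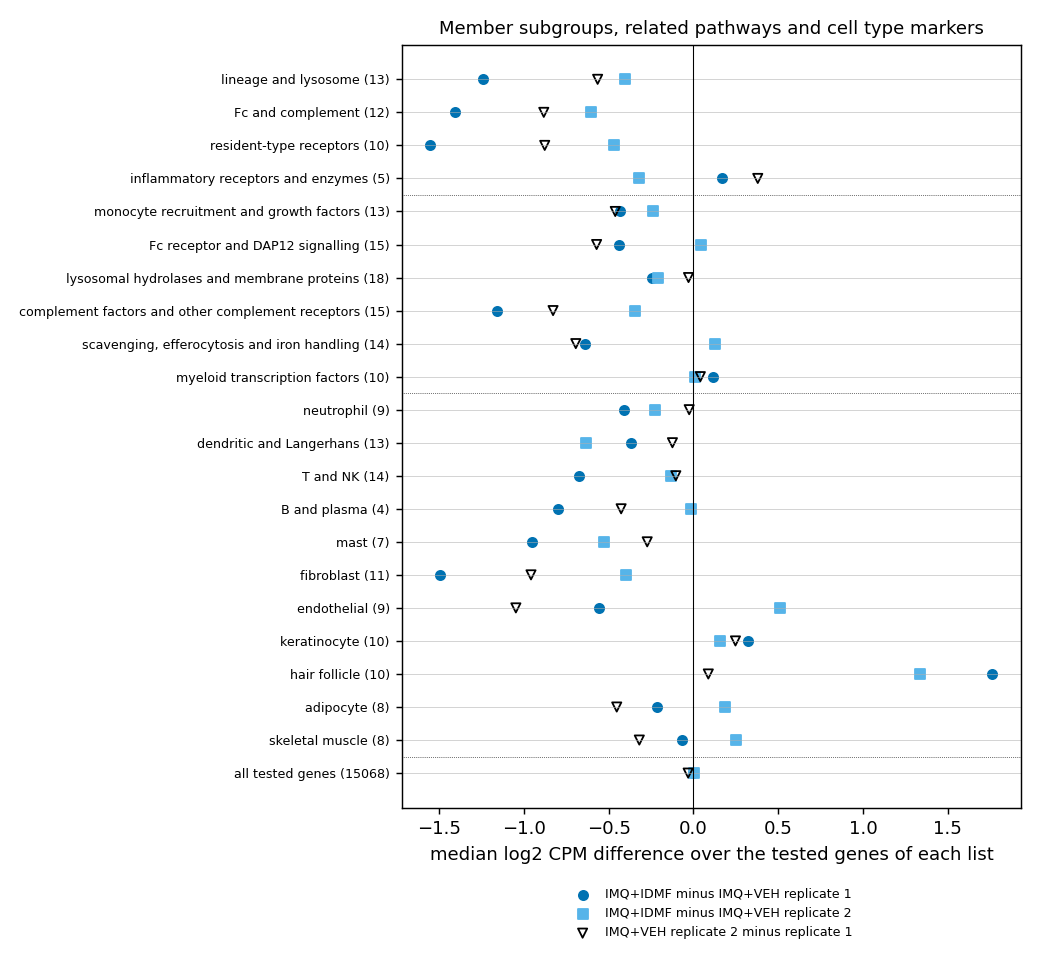
Median log2 CPM difference over the tested genes of each list (number of genes in parentheses): IMQ+IDMF minus IMQ+VEH replicate 1 (circles), IMQ+IDMF minus replicate 2 (squares) and IMQ+VEH replicate 2 minus replicate 1 (triangles). The first 3 macrophage subgroups lie left of 0 in all of them. So do the markers of fibroblasts and of each other immune cell type, some only slightly. The complement, recruitment and lysosomal lists do so as well. Hair follicle markers lie far right for IMQ+IDMF, and all tested genes together lie at 0.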

How the data were processed

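Gene expression was measured by single-end RNA sequencing (50 cycles) of the 4 skin libraries. The authors deposited, per the file headers, raw counts and FPKM values for 20611 gene symbols per library. The builds GRCm38 and mm10 and the tools TopHat2, HTSeq and Cufflinks are named per the submitters' processing notes. Versions, annotation, strand setting and the treatment of reads with several matches: not given in the sources used here. In the deposited names, the sequencing core's number for IMQ+VEH replicate 2 lies apart from the other 3; whether it was handled separately is not given, and this cannot be told apart from the spread of the pair.

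Counts were tested with the quasi-likelihood F test (two-sided) of edgeR 4.0.16, run in R 4.3.3, with TMM scaling, filterByExpr by group (count of 10, total of 15, leaving 15068 genes), 1 mean per group, Benjamini-Hochberg adjustment over all tested genes and a threshold of 0.05. As IMQ+VEH alone has replicates, each gene left 1 residual degree of freedom beside 11.2 prior degrees, a common biological coefficient of variation of 24.0%, and the single libraries were assumed to vary like that pair. Standard errors are the absolute log2 fold change over the square root of F. Log2 CPM differences used a prior count of 2 and carry no test. Depth was 21167149 to 26639628 counts per library. The script was tested on simulated data.

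Members, subgroups, 6 pathway lists and 11 marker lists were chosen with earlier results of these data known, so no list was tested and lists are described by counts and medians. Genes with values in every library are, per subgroup, the 3 with the highest mean FPKM and the 3 farthest below both IMQ+VEH libraries (mean log2 CPM of at least 1), those past the threshold, the lysozyme pair, the C1q chains, Arg1, Nos2, Chil3, Trem2 and the 2 for which IMQ is farthest from the rest. Of each list, up to 3 genes were eligible. Gpr34, Itgam, Adgre1, Csf1r, Maf, Cd163, C5ar1 and the ratios to Adgre1 were added after their values were seen. Ly6g and Flg of the marker lists are not analysed here. Positions and 50-base windows come from GENCODE M21 (GRCm38), which held all 41 genes, and promoters from RefSeq (GRCm38.p6). Alternatives were DESeq2 1.42.0, edgeR scaled by total counts or by DESeq2 size factors, a filter at a mean count of 50 or none, IMQ and IMQ+VEH as 1 group, each library left out, and FPKM as log2(FPKM + 0.1) and log2(FPKM + 1). The counts of members below or above libraries under these settings were added after seeing the data.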

Additional observations from a re-analysis of the deposited data

How the results depend on the processing

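The genes called in IMQ+IDMF against IMQ+VEH were 0 in every alternative but the one with no filter on low counts, which called 16 (11 higher, 5 lower, Itgam among them). In IMQ+VEH against IMQ, 81 to 131 genes were called, except 424 with no filter and 202 by DESeq2, against 100. Neither count could be tested without an IMQ+VEH replicate, since no residual degree of freedom is left. The member median for IMQ+IDMF against IMQ+VEH kept its sign in every alternative, from -1.36 without IMQ+VEH replicate 2 to -0.52 without replicate 1. Members below both IMQ+VEH libraries numbered 35 (of 37 tested) with a mean count of at least 50, and 36 of 40 otherwise (27.5% of all genes in the main setting). Below the 1 replicate that was kept lay 39 of 40 without replicate 1 and 37 of 40 without replicate 2. For IMQ+VEH against IMQ the member median ran from -0.05 to 0.60 without one replicate each, so the replicates decide its sign. Members above IMQ numbered 16 (of 37 tested) with a mean count of at least 50, and 18 to 34 without one replicate each. The median for IMQ+IDMF against IMQ ran from -0.69 to -0.46, and that of the IMQ+VEH pair from -0.86 to -0.72, where total counts moved the median of all genes to -0.15 and log2(FPKM + 0.1) to -0.14. With no call, the sign of the fold change turned under at least 1 alternative for 4 of 40 members in IMQ+IDMF against IMQ+VEH: Arg1 (-1.31) and Nos2 (0.44) with IMQ and IMQ+VEH as 1 group, which adds the IMQ library where Arg1 is high, and without one replicate Clec7a (0.17), Chil3 (0.47), Nos2 (0.54) and Arg1 (-0.02). In IMQ+VEH against IMQ it turned for 17 of 40, 16 of them without one replicate (among them Adgre1, -0.85 to 0.26, and Itgam, -0.81 to 0.59) and Maf on the FPKM scale (0.02). Of these Lyz2 (0.0027 with DESeq2 size factors, 0.0801 with total counts, 0.0052 with a mean count of at least 50, 0.0018 by DESeq2, 0.0101 without IMQ+IDMF and -0.46 to 0.34 without one replicate), Lyz1 (0.0548) and Ly86 (0.0560), both with total counts, turned under scaling or filtering too. The other causes were not tested. No paired analysis was possible because IMQ+VEH alone is replicated and no other library carries a second number. Depth limits Marco, Nos2 and Chil3, with at most 23 counts in any library.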

Other observations

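Clec10a has a neighbour of similar sequence, Mgl2, which encodes the lectin MGL2 of dermal dendritic cells, and 8.49% of the 50-base windows of Clec10a are shared with it. Mgl2 had 147 counts in IMQ+IDMF skin, 480 and 230 in IMQ+VEH replicates 1 and 2 and 98 in IMQ skin. Cd209a, a DC-SIGN homologue of monocyte-derived dendritic cells, had 61 counts in IMQ+IDMF skin, 237 and 84 in IMQ+VEH skin and 24 in IMQ skin. Both genes had the order of libraries seen for Clec10a, with IMQ lowest and IMQ+VEH replicate 1 highest. Neither passed the threshold in IMQ+VEH against IMQ, with log2 fold changes of 1.88 for Mgl2 (SE 0.47, edgeR adjusted p = 0.135) and 2.73 for Cd209a (SE 0.71, edgeR adjusted p = 0.152). Ccr7, the chemokine receptor of migrating dendritic cells, had 0 counts in IMQ+IDMF skin, 21 and 14 in IMQ+VEH skin and 7 in IMQ skin.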
